A study of Mus musculus with 6 samples.

Results

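Small leucine-rich proteoglycans are secreted matrix proteins with a leucine-rich repeat core, and 9 of their genes were followed here: Dcn, Bgn, Aspn, Fmod, Lum, Prelp, Omd, Ogn and Podn. They were chosen by gene symbol, and all 9 were found among the 12830 genes of the deposited table. Polyadenylated RNA was sequenced from primary mouse BMSCs (bone marrow stromal cells, adherent cells that can form osteoblasts) under osteogenic induction, with 2 days given in the library names. The control group, FF, came from mice homozygous for a floxed Rras2 allele (Rras2f/f), and the conditional knockout group, cKO, from Prx1;Rras2f/f mice. All mice were 8 weeks old, both groups carry the floxed allele, and each group had 3 libraries. The Prx1 promoter is known for activity in limb mesenchyme, from which stromal cells of limb bones arise, and not in blood cells. Whether each library is a separate mouse is not stated, and p-values therefore reflect the spread among these libraries, which may be technical.

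The family coats collagen fibrils. Its members bind along the fibril, set how thick fibrils grow and how they are spaced, and hold growth factors of the TGF-beta and BMP families in the matrix. Class I members (decorin, biglycan and asporin) mostly carry chondroitin or dermatan sulfate chains. Of the class II members, fibromodulin, lumican and osteoadherin carry keratan sulfate or sulfated tyrosines, whereas PRELP has a basic end. Bone-forming cells are known to make decorin, biglycan, osteoadherin and osteoglycin, and mice lacking biglycan have low bone mass.

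Each library held from 31934714 to 37561452 counts over the listed genes. Rras2, the targeted gene, was at 49.7, 50.1 and 44.7 CPM in FF replicates 1, 2 and 3 and at 26.7, 29.0 and 26.8 CPM in cKO (CPM, TMM-scaled counts relative to library size). Stroma markers were present in every library, among them Prrx1, with 245.7 ± 4.95 (FF) and 223 ± 11.7 CPM (cKO; SD, n = 3). Of 6 stroma genes, Cxcl12 and Lepr rose and Col1a1 fell. The cultures also held macrophage RNA: 7 marker genes summed to between 19797 and 21128 CPM in FF and between 21529 and 22277 CPM in cKO, and 1 of the 7, Tyrobp, was called higher, though not without FF replicate 2 or cKO replicates 2 or 3 (highest adjusted p = 0.0976). In such bulk samples, fewer cells of a type and less RNA per cell cannot be told apart.

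Most of the family was lower in the cKO libraries. Of the 9 members, 6 fell (Fmod, Lum, Dcn, Prelp, Aspn and Ogn), 0 rose and 3 did not pass the test (edgeR's quasi-likelihood test at a Benjamini-Hochberg threshold of 0.05 over all 12830 genes). DESeq2 called 7 members, all lower, where it called 6.61% of all genes. At an unadjusted p below 0.05 in edgeR, 7 members were lower, the 6 called and Omd, and 1, Podn, was higher. The share of all genes at this unadjusted threshold was not counted, here or for the lists below. Over all genes 4.84% were called, 2.74% lower and 2.10% higher. The median log2 fold change of the members was -0.39, beside 0.00058 over all genes. In 8 members every cKO library lay below every FF library, which held for 11.2% of all genes. In the remaining member, Podn, every cKO library lay above every FF library, which held for 11.3% of all genes. The fall was uneven: it ranged from 10.6% for Ogn to 49.0% for Fmod among the called members. The count of called members was between 4 and 6 when any 1 library was left out.

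**Figure D1:**
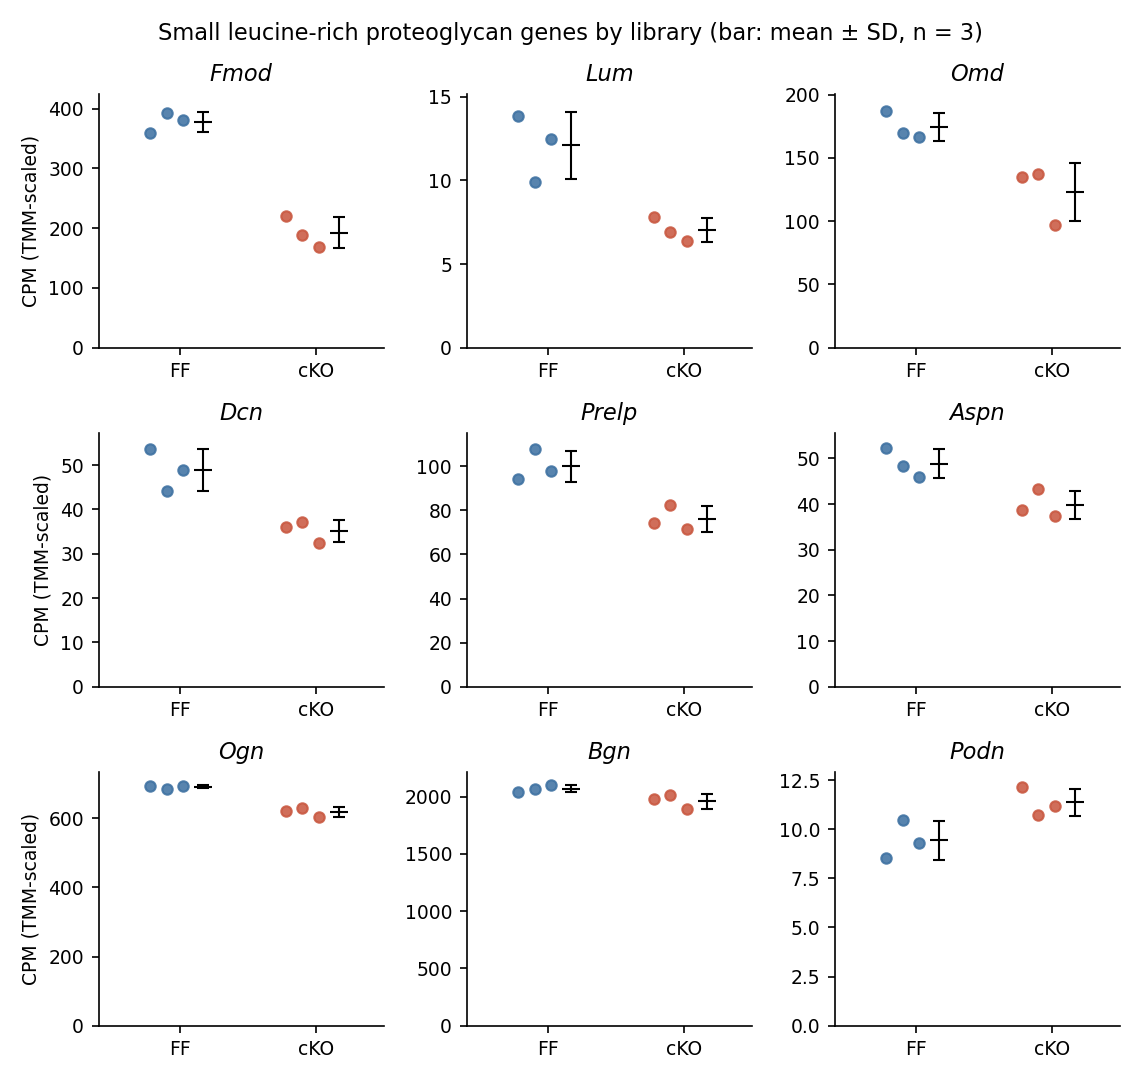
CPM of each member (vertical axis from 0) in the 3 FF and 3 cKO libraries, replicates 1 to 3 from left to right, with the mean and SD as a bar. Fmod shows the widest separation, with FF between 360.0 and 392 CPM and cKO between 169 and 219.5 CPM, and Podn is the member in which cKO lies above FF.

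Levels of different genes were compared by the deposited FPKM values, which scale counts by gene length. Bgn, the biglycan gene, was the most abundant member, with an average of 760 FPKM over the 6 libraries and a range of 703 to 803. Ogn, the osteoglycin gene, followed with an average of 233 FPKM, 3.27-fold below Bgn. Fmod and Omd, the genes of fibromodulin and osteoadherin, had averages of 83.5 and 83.3 FPKM. In FF all libraries had more Fmod (104 to 116 FPKM) than any had Omd (95.4 to 103 FPKM). In cKO the ranges overlapped, at 48.8 to 64.2 FPKM for Fmod and 54.1 to 76.4 FPKM for Omd. Prelp, Dcn and Aspn averaged 22.2, 21.8 and 17.4 FPKM. Prelp and Dcn overlapped in both groups, and Dcn and Aspn overlapped in cKO but not in FF. Lum and Podn were the least abundant, at 3.55 and 3.04 FPKM, 214-fold and 249.6-fold below Bgn. These distances depend on the gene length used. Taken as library-scaled counts per kilobase of all annotated exons, the distance to Bgn moved by more than 1.5-fold for 7 of the other 8 members: it was 1.296-fold for Ogn, 84.7-fold for Lum and 136-fold for Podn. On that scale Fmod averaged more than Omd (86.2 against 66.1), again with separate ranges in FF and overlapping ranges in cKO. Dcn stood at 7.204, below Prelp at 24.4 in every library and below Aspn at 18.8, so the place of Dcn is uncertain.

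**Figure D2:**
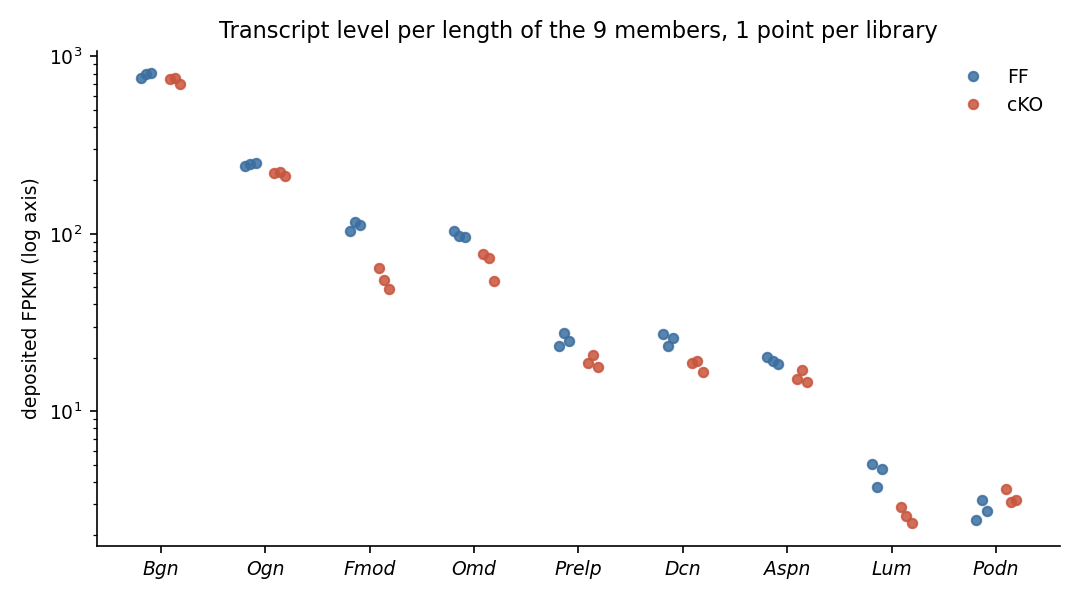
Deposited FPKM on a log axis for the 9 members, ordered by their average, with 1 point per library (blue FF, red cKO). Bgn and Ogn stand above the others, and the Fmod points lie above Omd in FF but overlap with them in cKO.

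Bgn held most of the counts of the family, so totals are given with and without it. Summed over the 9 genes, the total was 3532 ± 26.2 (FF) and 3064 ± 128 CPM (cKO; SD, n = 3), lower by 13.2%. Without Bgn the other 8 genes summed to 1462 ± 6.37 (FF) against 1103 ± 65.6 CPM (cKO), lower by 24.6%. Without Bgn and Ogn it was 771 ± 10.6 against 485 ± 52.6 CPM, lower by 37.1%. Bgn accordingly took a larger part of the family in cKO: its share of summed FPKM was 59.5% ± 0.549 in FF and 64.7% ± 0.824 in cKO. The share of Fmod went from 8.41% ± 0.351 to 4.92% ± 0.509, while that of Ogn was 18.7% ± 0.12 and 19.2% ± 0.422 (SD, n = 3 throughout). Per kilobase of annotated exon the share of Bgn was smaller, 39.3% ± 0.478 in FF and 44.4% ± 0.754 in cKO, and that of Fmod was 13.2% ± 0.555 and 8.02% ± 0.809. No test was made on these sums and shares. The members together held between 0.291% and 0.358% of all counts of a library.

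Among class II genes, Fmod changed most. Fibromodulin binds type I collagen and lysyl oxidase and guides fibril growth and crosslinking in tendon and bone. Its gene, ENSMUSG00000041559, spans 134037254 to 134048277 of chromosome 1 in mm10, plus strand. It was at 360.0, 392 and 380 CPM in FF replicates 1, 2 and 3, and at 219.5, 189 and 169 CPM in cKO replicates 1, 2 and 3. The lowest FF library exceeded the highest cKO library by 140.5 CPM. This is a log2 fold change of -0.97 (standard error 0.0951), or 1.96-fold lower (edgeR adjusted p = 0.00269). By size, this fall ranked 112 of 12830 genes. It kept its call whichever library was left out, with log2 fold changes between -1.08 and -0.89.

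Lum, the lumican gene, had the next largest fall. Lumican competes with fibromodulin for the same site on collagen and carries keratan sulfate in the cornea. The gene, ENSMUSG00000036446 (chromosome 10 from 97565128 to 97572703, plus strand), was at 13.9, 9.93 and 12.5 CPM in FF and 7.78, 6.91 and 6.39 CPM in cKO. These rest on between 232 and 479 counts per library, the lowest counts of a member in cKO, and the FF libraries varied by 16.5% of their mean. The groups did not overlap, although the gap between them was only 2.15 CPM. Lum fell by 0.78 on the log2 scale, standard error 0.135 (edgeR adjusted p = 0.00353), and this call too held without any 1 library (highest adjusted p = 0.0283).

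Prelp encodes a class II protein with a basic end that binds heparan sulfate and links basement membranes to collagen. It is ENSMUSG00000041577, at 133910304 to 133921414 of chromosome 1, minus strand. Its libraries were at 94.1, 108 and 97.7 CPM in FF and 74.1, 82.6 and 71.6 CPM in cKO. All cKO values were below all FF values. Prelp fell by 0.39 on the log2 scale, standard error 0.0645 (edgeR adjusted p = 0.00290), and it passed without any 1 library (highest adjusted p = 0.0254).

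Omd encodes osteoadherin, also called osteomodulin, an acidic protein of mineralised matrix that binds hydroxyapatite and integrins. ENSMUSG00000048368 spans 49582462 to 49592822 on the plus strand of chromosome 13. FF libraries were at 187, 169 and 167 CPM, and cKO libraries at 135, 137 and 97.0 CPM. The groups did not overlap, but cKO replicate 3 lay well below the other cKO libraries. Its log2 fold change of -0.50 had a 95% interval from -0.93 to -0.07 and did not pass in edgeR (adjusted p = 0.223). DESeq2 called it (adjusted p = 0.0297), as did edgeR without cKO replicate 3, where the log2 fold change was -0.36 (adjusted p = 0.00260). The authors' deposited adjusted p for Omd, also 0.0297, is no separate support, because DESeq2 as run here gave the same calls as the authors.

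The class I genes differed widely from each other. Dcn encodes decorin, which wraps collagen fibrils and binds TGF-beta, and is ENSMUSG00000019929 on chromosome 10 from 97479609 to 97518143, plus strand. It was at 53.6, 44.2 and 49.0 CPM in FF and 36.1, 37.2 and 32.4 CPM in cKO. Every cKO library was at least 7.03 CPM below the lowest FF library. Dcn fell by 0.47 on the log2 scale, standard error 0.0780 (edgeR adjusted p = 0.00262), and no left-out library ended the call (highest adjusted p = 0.0166).

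Bgn, the gene of biglycan, decorin's closest relative, is ENSMUSG00000031375 on chromosome X from 73483602 to 73495933, plus strand. Its values of 2044, 2063 and 2103 CPM in FF and 1979, 2015 and 1889 CPM in cKO did not overlap, but the gap of 29.3 CPM was small against the level. Its log2 fold change of -0.08 did not pass (edgeR adjusted p = 0.433). Its 95% interval ran from 11.6% lower to 1.55% higher, so a change of the size seen for Dcn lies outside it. The Dcn to Bgn ratio of CPM was 0.0262, 0.0214 and 0.0233 in FF and 0.0182, 0.0184 and 0.0172 in cKO. It was added after the values were seen and restates the fold changes of the pair. On the log2 scale that ratio was lower in cKO (difference -0.39, standard error over libraries 0.0903), with all cKO libraries below all FF libraries (exact permutation test, two-sided, p = 0.10, the smallest that 3 against 3 allows).

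Aspn encodes asporin, which has a run of aspartate residues in place of the usual sugar attachment and inhibits TGF-beta and BMP-2 signalling. ENSMUSG00000021388 lies on chromosome 13 from 49544443 to 49567565, plus strand. FF libraries were at 52.2, 48.2 and 45.9 CPM and cKO libraries at 38.7, 43.3 and 37.4 CPM. The highest cKO library came within 2.67 CPM of the lowest FF library. Aspn fell by 0.29 on the log2 scale, standard error 0.0715 (edgeR adjusted p = 0.0286). It was no longer called without FF replicates 1 or 2 or cKO replicate 3 (adjusted p = 0.141, 0.0968 and 0.116).

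Ogn, the class III gene of osteoglycin or mimecan, encodes a collagen-binding protein first isolated from bone. It is ENSMUSG00000021390 on chromosome 13 from 49608046 to 49624501, plus strand. Its values were 693, 685 and 694 CPM in FF and 621, 629.8 and 602 CPM in cKO. The FF libraries agreed closely, with an SD of 0.675% of the mean. Ogn fell by 0.16 on the log2 scale, standard error 0.0423 (edgeR adjusted p = 0.0422). This small fall was the least stable call: it was kept without cKO replicate 1 (adjusted p = 0.0178) but ended without FF replicates 1, 2 and 3 (adjusted p = 0.118, 0.163 and 0.136) and without cKO replicates 2 and 3 (0.0787 and 0.184).

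Podn, the class V gene of podocan, had the opposite sign. Podocan binds collagen and restrains smooth muscle growth. ENSMUSG00000028600 lies on chromosome 4 from 108014791 to 108096445, minus strand. It was at 8.54, 10.5 and 9.29 CPM in FF and 12.1, 10.7 and 11.2 CPM in cKO. The groups were separated by 0.264 CPM. Its log2 fold change of 0.27 did not pass (edgeR adjusted p = 0.223), and its 95% interval ran from 2.01% to 42.1% higher. DESeq2 did not call it either (adjusted p = 0.284). Podn overlaps the more abundant Scp2 (336 CPM) on the same strand, so some reads could belong to either gene.

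**Figure D3:**
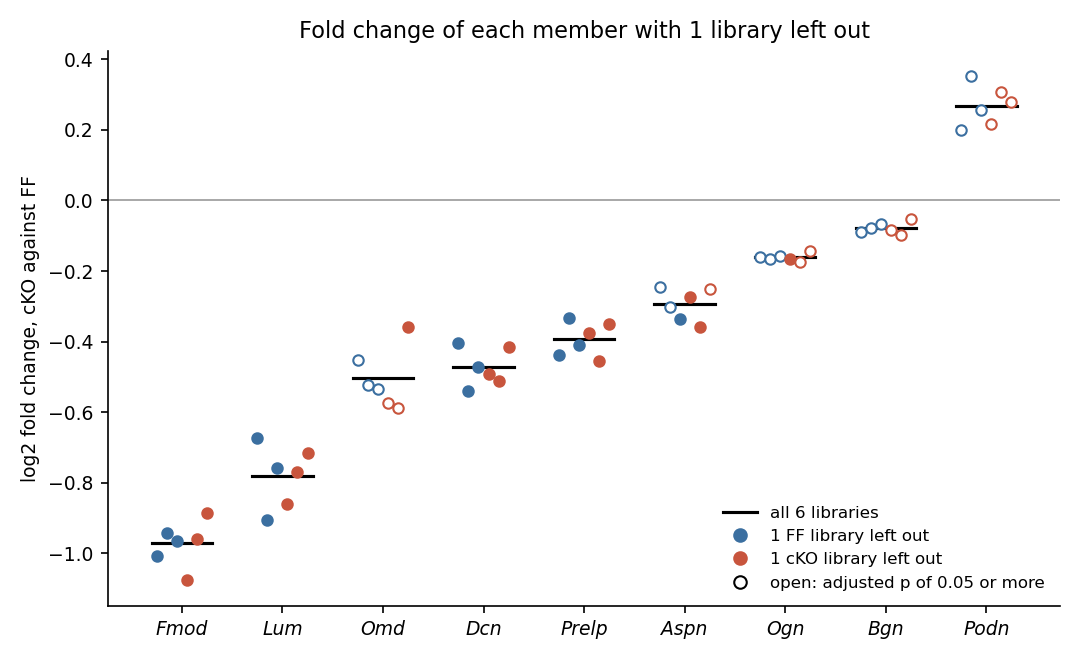
Log2 fold change of each member with all 6 libraries (bar) and with each library left out in turn (blue, an FF library; red, a cKO library; filled where the adjusted p was below 0.05). Fmod, Lum, Dcn and Prelp are filled throughout, Ogn only without cKO replicate 1, and no point crosses 0.

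Library cKO replicate 3 was the lowest of all 6 libraries in each of the 8 members with a negative log2 fold change. The same library had the lowest sum over 7 osteoblast markers, which was 2951, 2923 and 2836 CPM in FF replicates 1, 2 and 3 and 2279.98, 1982 and 1658 CPM in cKO replicates 1, 2 and 3. Of these 7 genes 6 were lower in every cKO library than in any FF library, 1 (Runx2) was called by edgeR but not without FF replicate 3 or cKO replicates 2 or 3 (highest adjusted p = 0.0740), and 5 were called lower by DESeq2. Alpl, the tissue alkaline phosphatase gene, was chosen after its values were seen. It was at 1601, 1531 and 1550 CPM in the FF libraries and 1202, 943 and 821 CPM in the cKO libraries. Its log2 fold change of -0.66 did not pass in edgeR (adjusted p = 0.117) but did in DESeq2 (adjusted p = 0.00217). The osteoblast marker sum was lower in the same libraries as the family, and its part in the result was not tested. Tendon markers were low (3 of 5 listed, summing to 11.1 to 13.2 CPM in FF and 12.1 to 16.4 CPM in cKO). Thbs4 and Kera, the other 2 of the 5, are not listed. Of these 3 markers 0 were called by edgeR or DESeq2. At an unadjusted p below 0.05, 1 of them, Mkx, was higher (log2 fold change 0.53, edgeR adjusted p = 0.136). Adipoq was the 1 marker called of 5 listed for adipocytes, and it rose, as did both listed plasma cell markers, Igkc and Jchain. Chondrocyte and endothelial markers had 0 edgeR calls among 3 and 4 listed, with 1 each at an unadjusted p below 0.05, and 2 and 0 by DESeq2.

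Of the 9 members, 7 lie beside another member in the genome. Dcn and Lum are neighbours on chromosome 10, with 47.0 kb between them, and both fell. Prelp and Fmod are adjacent genes on chromosome 1, on opposite strands, 116 kb apart, and both fell. On chromosome 13, Ecm2, Aspn, Omd and Ogn follow each other on the plus strand, with gaps of 11.7, 14.9 and 15.2 kb. Aspn and Ogn fell, though both calls ended in some fits with a library left out. Omd, between them, did not pass in edgeR, at -0.50 (adjusted p = 0.223). Ecm2, a related gene outside the 9, did not pass either, at -0.10 (edgeR adjusted p = 0.534). The listed genes from outside the family that lie next to a member of these clusters had small differences that did not pass. The gene on the far side of Ecm2 was not looked up. Btg1, the next gene to Dcn but 857 kb away, had -0.11 (edgeR adjusted p = 0.243). Btg2, 26.9 kb from Fmod, had 0.02 (0.891), and Nol8, 28.6 kb from Ogn, had -0.05 (0.823). Kera and Optc, the flanking family genes next to Lum and Prelp, are not listed and so have no values here. All of Aspn, Omd and Ogn lies within Cenpp, a gene on the opposite strand. Cenpp averaged 7.26 CPM, below each of the 3, and did not pass (log2 fold change -0.13, edgeR adjusted p = 0.711). Podn overlaps Scp2 on the same strand, which was at 336 CPM (log2 fold change 0.02, edgeR adjusted p = 0.860), so reads in the shared span could be assigned to either.

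**Figure D4:**
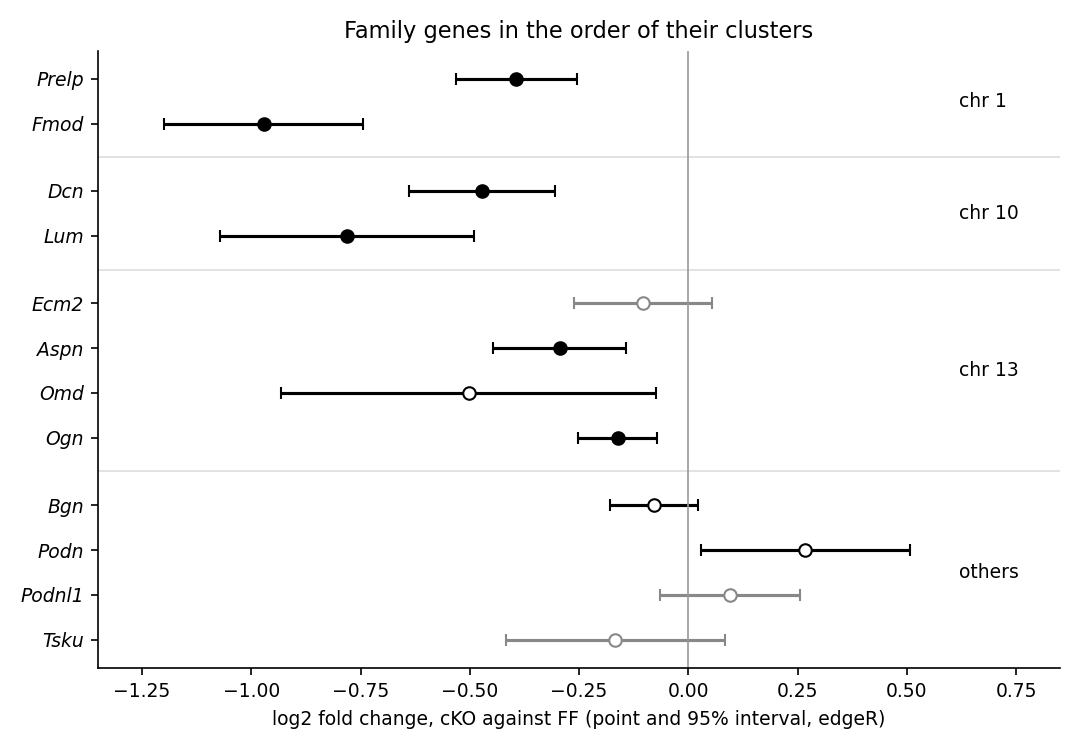
Log2 fold change with its 95% interval for the 12 listed genes of the wider family, in genomic order within each cluster (black, the 9 members; grey, Ecm2, Podnl1 and Tsku; filled, adjusted p below 0.05). Both genes of the chromosome 1 and chromosome 10 pairs are filled, and Ecm2 and Omd in the chromosome 13 cluster are open.

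Ratios between neighbouring genes separated the groups. The Prelp to Fmod ratio was 0.261, 0.275 and 0.257 in FF and 0.338, 0.437 and 0.424 in cKO, higher by 0.59 on the log2 scale (standard error 0.121). The Dcn to Lum ratio was higher in cKO by 0.30 (standard error 0.0893), the Aspn to Omd ratio by 0.22 (0.127), and the Omd to Ogn ratio differed by -0.36 (0.153). In each of these 4 ratios the 3 cKO libraries lay on the same side of the 3 FF libraries. The pairs were chosen after the values were seen, and each difference restates the fold changes of the genes in the pair. How often ratios of other gene pairs separate the groups was not counted. With the Dcn to Bgn ratio, 5 pairs were compared, each with an exact two-sided permutation p of 0.10 and an adjusted p of 0.10, the smallest this design can give, so none can pass at 0.05.

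Promoter sequences are shown for some of the members with a negative log2 fold change. These are Fmod and Prelp, the adjacent pair that fell, Ogn with its small fall, and Bgn, which did not pass. Podn, the member of opposite sign, is not shown. Each line gives the 250 bases before the RefSeq transcription start on the gene's strand (GRCm38.p6, the mm10 build), in lower case with motif letters in capitals. The windows are chr1:134037004-134037253 (plus strand) for Fmod, chr1:133921402-133921651 (minus) for Prelp, chr13:49607765-49608014 (plus) for Ogn and chrX:73483351-73483600 (plus) for Bgn.
Fmod: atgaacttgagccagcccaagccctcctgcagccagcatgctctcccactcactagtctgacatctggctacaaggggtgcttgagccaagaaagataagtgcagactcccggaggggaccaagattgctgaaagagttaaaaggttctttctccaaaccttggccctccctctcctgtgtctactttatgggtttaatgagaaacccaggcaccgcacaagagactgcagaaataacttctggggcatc
Prelp: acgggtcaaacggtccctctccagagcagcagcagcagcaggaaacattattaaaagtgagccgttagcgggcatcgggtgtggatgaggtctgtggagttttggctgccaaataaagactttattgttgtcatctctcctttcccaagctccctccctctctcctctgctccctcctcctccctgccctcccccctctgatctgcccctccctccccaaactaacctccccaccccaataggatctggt
Ogn: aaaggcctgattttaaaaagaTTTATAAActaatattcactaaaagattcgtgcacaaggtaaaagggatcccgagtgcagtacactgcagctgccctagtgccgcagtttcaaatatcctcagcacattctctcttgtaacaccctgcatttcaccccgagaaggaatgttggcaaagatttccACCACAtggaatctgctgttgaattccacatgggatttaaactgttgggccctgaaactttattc
Bgn: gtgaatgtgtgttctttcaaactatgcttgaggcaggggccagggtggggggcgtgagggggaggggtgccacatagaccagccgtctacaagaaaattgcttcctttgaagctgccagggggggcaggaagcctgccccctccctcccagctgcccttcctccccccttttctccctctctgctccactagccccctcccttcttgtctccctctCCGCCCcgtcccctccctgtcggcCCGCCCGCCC

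The letters searched, on both strands, were GGGCGG (the GC box), TATAAA (the TATA box), TGTGGT (the core bound by Runx factors) and TGANTCA (the AP-1 site). RefSeq windows were found for 7 of the 9 members, with 2 starts for Podn and none for Dcn or Lum. GGGCGG was in the window of Bgn, at 3 positions of which 2 overlap, and in 1 of the 2 Podn windows, at 2 positions, and in 0 of the windows of Fmod, Prelp, Omd, Aspn and Ogn. It occurs in 32.7% of the 32851 RefSeq windows of this length. TATAAA was in the windows of Aspn and Ogn, far from the start (207 and 178 bases before it in Aspn, 229 and 227 in Ogn), against 12.4% of all windows. TGTGGT was in that of Ogn alone, 65 bases before the start, against 14.05% of all windows. TGANTCA was in none of the 8 windows, against 6.75% of all. The windows also differed in base composition: GC content was 30.0% for Aspn, 38.4% for Omd, 42.0% for Ogn, 51.2% for Fmod, 55.6% for Prelp, 64.4% for Bgn and 64.0% and 78.0% for the 2 windows of Podn, with a median of 52.4% over all windows. A match is a description of letters and not of binding.

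The deposited annotation gives a leucine-rich repeat domain to 80 listed genes, the 9 members among them. Of the other 71 genes, 3 were called lower and 1 higher, with a median log2 fold change of -0.02. Over all genes 2.74% were called lower and 2.10% higher. Of the wider family, 12 of 17 mouse genes were listed. The 3 outside the 9 members, Ecm2, Tsku and Podnl1, had log2 fold changes of -0.10, -0.17 and 0.10, and 0 of them passed (edgeR adjusted p = 0.534, 0.521 and 0.576), nor did DESeq2 call any (0.661, 0.613 and 0.674).

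Lists of genes that build, bind and cut these proteins were chosen with earlier results known, and the share of all genes called, given above, is their background. For chondroitin and dermatan sulfate synthesis all 26 genes were listed, 5 fell and 1 rose, with a median log2 fold change of -0.11. Papss2, which makes the sulfate donor, was at 40.8 ± 1.46 CPM (FF) and 30.9 ± 0.769 CPM (cKO; SD, n = 3), and fell (edgeR adjusted p = 0.00147). Chsy1 and Chpf, which polymerise the chain, had log2 fold changes of -0.27 and -0.28. Their calls ended without FF replicate 2 or cKO replicate 3 (highest adjusted p = 0.0757 and 0.0725). Chst15, which adds a further sulfate to chondroitin chains, rose by 0.48, with an adjusted p of 0.0513 without cKO replicate 2. For keratan sulfate and tyrosine sulfation 8 of 9 genes were listed and 0 were called by edgeR or DESeq2, with 1 at an unadjusted p below 0.05 and a list median of 0.03. The 2 most abundant, B4galt1 and B3gnt2, had log2 fold changes of 0.02 and 0.05.

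The collagens of the fibrils that the family coats were mostly lower. Of 10 listed genes out of 11, 7 fell (9 by DESeq2) and the other 3 had negative log2 fold changes, with a median log2 fold change of -0.32. Type I collagen, the main collagen of bone, had -0.59 for Col1a1 and -0.44 for Col1a2, Col12a1, a collagen of fibril surfaces, -0.52, and Col5a2, of the type V collagen that starts fibrils, -0.27. Set beside these, Fmod and Lum had larger log2 falls than any of the 10 collagen genes, and Ogn and Bgn smaller ones than 9 and all 10 of them. Col5a1 (-0.46) and Col6a3 (-0.30) also fell, and both calls were kept whichever library was left out. The Col6a2 call (-0.23) was lost without any FF library or without cKO replicates 2 or 3 (highest adjusted p = 0.158). Col3a1, at -0.19, did not pass (edgeR adjusted p = 0.0880).

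Of the proteases that process or cut the family, 9 of 12 were listed and 2 fell (4 lower and 1 higher by DESeq2), with a median of -0.18. Bmp1, which trims the biglycan and osteoglycin precursors as well as procollagen, had a log2 fold change of -0.25 and Mmp2, a gelatinase that degrades decorin, -0.18. Bmp1 was not called without FF replicate 2 or cKO replicates 2 or 3 (highest adjusted p = 0.0618), and Mmp2 passed with 1 library left out only when that was cKO replicate 1 (highest adjusted p = 0.218). Adamts5, an aggrecanase chosen after its values were seen, had the largest difference of the list and the opposite sign. It was at 36.8, 42.8 and 41.7 CPM in FF and 53.3, 76.1 and 70.1 CPM in cKO, without overlap (log2 fold change 0.72, edgeR adjusted p = 0.0556, DESeq2 adjusted p = 1.0e-09). Of the 13 receptors and growth factors that the family binds, 3 rose and the other 10 did not pass, with a median of 0.02. Bmp4 and Bmp6, bone morphogenetic proteins, had log2 fold changes of 0.47 and 0.81, and Egfr, a decorin receptor, 0.39. Egfr did not pass without FF replicate 3 or cKO replicates 2 or 3 (highest adjusted p = 0.0629). Tgfb1, Tgfb2 and Tgfb3 were listed and did not pass.

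Other proteoglycans were mixed. Of 16 listed out of 20, 2 rose and 1 fell (2 higher and 4 lower by DESeq2), with a median of -0.06. Hspg2, the gene of perlecan, a basement membrane proteoglycan, had a log2 fold change of -0.34, and it did not pass without FF replicates 2 or 3 or cKO replicate 2 (highest adjusted p = 0.0883). Esm1, the gene of endocan, a secreted dermatan sulfate proteoglycan, rose by 0.73 (210 ± 12.9 to 349 ± 37.6 CPM; SD, n = 3). Tgfbr3, the TGF-beta co-receptor betaglycan, rose by 0.18, a call lost without any FF library or without cKO replicate 2 (highest adjusted p = 0.136). Among 12 listed of 15 other fibril partners, 2 fell and 1 rose (4 lower and 1 higher by DESeq2), with a median of 0.04. Comp, a cartilage and tendon matrix protein gene also singled out here after its values were seen, had the largest difference of these. It was at 34.1, 31.7 and 27.1 CPM in FF and 19.6, 13.3 and 11.3 CPM in cKO, without overlap (log2 fold change -1.07, edgeR adjusted p = 0.102, DESeq2 adjusted p = 0.00144). Thbs2, a matrix thrombospondin that shapes collagen fibrils, had -0.27 (edgeR adjusted p = 0.00437). Thbs1 had -0.21 and Fbn1, the fibrillin gene, 0.22, both called with all libraries but not when any FF library or cKO replicate 3, or for Fbn1 cKO replicate 2, was left out (highest adjusted p = 0.214 and 0.207).

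**Figure D5:**
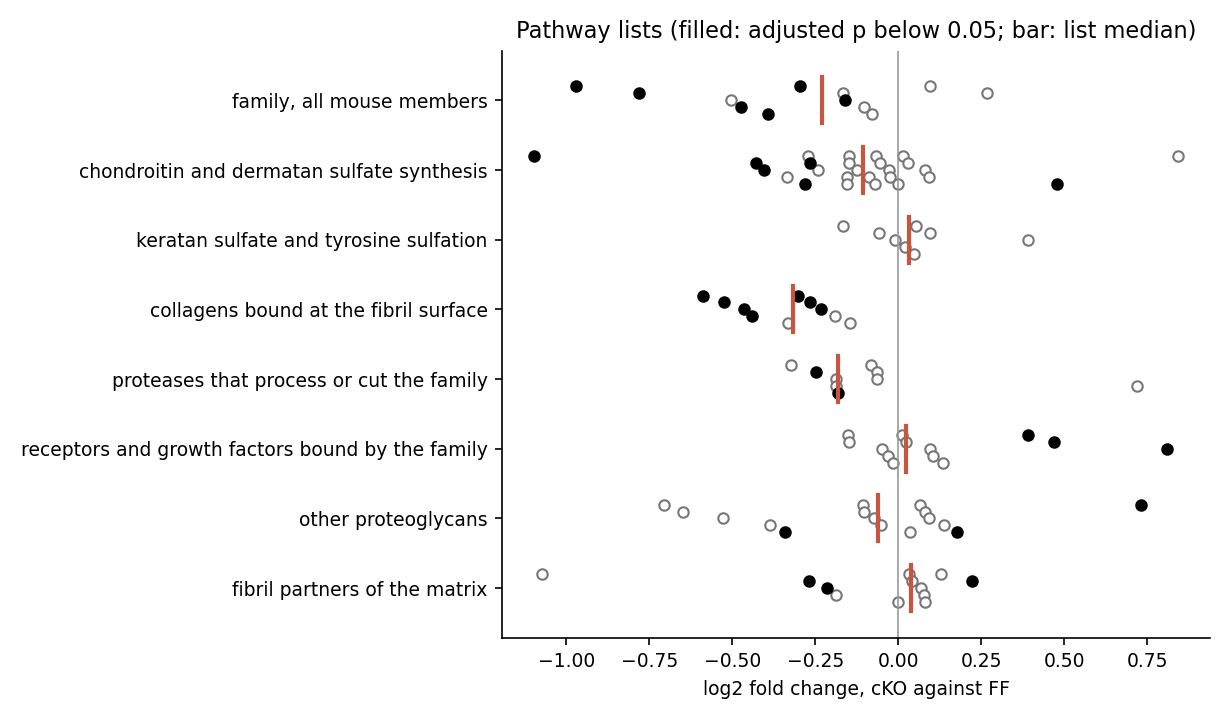
Log2 fold change of each listed gene in 8 lists, 1 point per gene (filled, adjusted p below 0.05; red bar, list median). The wider family and the fibril collagens have the lowest medians, -0.23 and -0.32, and the keratan sulfate list has no filled point.

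The profiles most like those of the called members were found by the root mean square difference of centred log2 CPM over the 6 libraries, among 10777 genes with an average of at least 5 CPM. For Fmod these were Insc, Id1, a BMP-induced transcriptional inhibitor, and Itga10, a collagen-binding integrin chain (differences of 0.0686, 0.0773 and 0.0805). For Dcn they were Cdk5rap1, Cd34 and Col1a2 (0.0365, 0.0683 and 0.0698). For Lum they were Gas1, Sncaip and Bambi, a pseudoreceptor for TGF-beta ligands (0.109, 0.113 and 0.115). Prelp was nearest to Asns, the asparagine synthetase gene, Dennd4a and Sytl2 (0.0497, 0.04999 and 0.0544). Aspn was nearest to Chsy3, a chondroitin synthase, Nsdhl and P4ha2, a collagen prolyl hydroxylase (0.0427, 0.0472 and 0.0495). For Ogn they were Nop56, Sec24d, a coat protein of secretory vesicles, and Kif20a (0.0158, 0.0197 and 0.0203). None of the 3 nearest profiles of any called member was another member. The measure uses the same libraries as the fold changes, so genes of similar fold change come out near.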

How the data were processed

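The 6 libraries were made with a stranded mRNA kit, per the labels' protocols. The deposited table holds raw counts per gene and, per the file headers, FPKM values that the authors scaled by gene length and depth. Its log2 fold changes and p-values are the authors' own. Per the submitters' processing notes the build is mm10. Which aligner, counter and statistical test they used, and whether counting was by strand, is not given in the sources used here. DESeq2 as run here differed from the deposited log2 values by at most 0.000109 and shared all 848 deposited calls.

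The main test was edgeR 4.0.16 (R 4.3.3) with TMM, filterByExpr, a robust quasi-likelihood fit and no covariates. All 12830 genes passed the filter, the 9 members included. A standard error is the coefficient over the root of F. In counts simulated for this comparison over 12830 genes, the recovery was 34% for 1.3-fold changes, 70% for 1.5-fold, 88% for 2-fold and 96% for 4-fold, and 7.10% of calls were false. Coordinates come from GENCODE M21, which matched 12611 identifiers and named 45 genes that had no symbol.

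The members, gene lists and motifs were chosen with earlier results of these data known. From each list, up to 4 called genes were named by smallest p, or the 2 of largest mean where none was called. Genes named outside this rule include Alpl, Adamts5, Comp, Prrx1, Col3a1, Col5a1, Col6a2, Col6a3, Chst13, Ust, Tgfb1, Tgfb2 and Tgfb3. The 3 nearest profiles were named for each called member. Ratios of member pairs were added after the values were seen. Alternatives covered scaling, filters, DESeq2 1.42.0, limma-voom (limma 3.58.1), a non-robust fit, the replicate number as a block and each library left out.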

Additional observations from a re-analysis of the deposited data

How the results depend on the processing

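No member changed direction under the 10 other settings or when any 1 library was left out. Of the 90 values under other settings 87 kept their side of the threshold, and of the 54 with a library left out 45 did. The non-robust fit gave 399 calls, 233 lower and 166 higher, and ended the calls of Aspn (-0.29, adjusted p = 0.0821) and Ogn (-0.16, adjusted p = 0.0543). DESeq2 called Omd (-0.50, adjusted p = 0.0297). The cause of these differences was not tested. With a library left out the count of all calls ranged from 268 (without FF replicate 2) to 1166 (without cKO replicate 1), lower calls from 161 to 631 and higher calls from 107 to 535. Log2 fold changes ranged from -0.36 to -0.25 for Aspn, -0.18 to -0.14 for Ogn and -0.59 to -0.36 for Omd. The family total was lower in cKO by 11.2% to 14.5%. Counts per exon kilobase kept 7 of the 9 members at their place in the level order. With the replicate number as a block 669 genes were called and 6 members, and the block changed no member's call. Same-numbered libraries had correlations of deviations of -0.036, 0.091 and -0.099, and not every library correlated best with its own number, so they were not treated as paired. Leaving out a library also leaves fewer libraries to estimate the spread. Lum and Podn, with the fewest counts, have the widest counting error.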
